A study of Mus musculus with 2 samples.

Results

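The imprinted Dlk1-Dio3 region of mouse chromosome 12 was followed through 39 of its mature microRNAs (miRNAs), each of which had a row of its own in a table of 739 rows. The rows were taken by miRBase accession: all 39 accessions searched for were found, and none shared a row with another accession. The table comes from 1-colour miRNA arrays labelled with the dye Hy5, with 1 array for each of 2 mouse epidermal keratinocyte lines of Balb/c origin. Pam212 is a spontaneously transformed line described as non-metastatic, and LY-1 is its metastatic derivative. Both were grown to confluence in serum-containing medium and left untreated, and 1 plate of each line was used. There is thus no replicate of either line, no spread between replicates and no test of any difference given here.

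Neither the table nor the reference tables used here pair these accessions with miRNA names, so values are given by accession, and which arm or family a row stands for is not stated. That the 39 accessions belong to the region was taken as given and could not be checked against names. The 700 other rows may in turn include further mature strands of the locus, so they are rows off this list of 39 and are not shown to lie elsewhere in the genome. For the same reason keratinocyte miRNAs could not be looked up as a check of the labelled cell type. The sources used here do not state how the authors scaled the intensities or why a cell of the table is empty.

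MicroRNAs are short RNAs that guide Argonaute proteins to messenger RNAs, mainly through the seed, the bases 2 to 8 of the mature strand. In the Dlk1-Dio3 region the protein-coding genes Dlk1, Rtl1 and Dio3 are expressed from the paternal chromosome, whereas the non-coding RNAs Meg3, Rian and Mirg and the miRNAs are expressed from the maternal one. Dlk1 encodes a membrane protein of the Notch ligand family, Rtl1 a retrotransposon-derived protein needed in the placenta, and Dio3 the deiodinase that inactivates thyroid hormone. The miRNAs of the region are known mainly from embryo, placenta and brain, and an active Meg3 side has been used as a mark of fully reprogrammed mouse stem cells.

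RefSeq (GRCm38.p6) lists 58 miRNA hairpins between Dlk1 and Dio3, 54 of them on the plus strand. It gives 113 named mature sequences in the same stretch, under 61 miRNA genes, so not all of them belong to the 58 hairpins. Of the hairpins, 15 lie within the bounds of Rtl1, 3 within Rian, 10 within Mirg and 1 within Meg3. Strand was not considered in these counts, and the bounds of Rtl1 overlap those of Meg3 and Rian, so they do not assign hairpins to host genes. The stretch from Mir379 to Mir410 holds 36 hairpins in 34.7 kb. The 39 rows of the array therefore sample only some of the mature sequences that are now named.

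The following 4 mature sequences are shown because they mark the layout of the locus, with the seed in capitals. The first, at chr12:109592888-109592909, is cut from a hairpin antisense to Rtl1 and is known to act on the Rtl1 transcript. The next, at chr12:109709065-109709085, opens the long cluster. The one at chr12:109734145-109734166 is known in rodent neurons for its action on dendritic spines, and the last, at chr12:109743764-109743784, lies near the cluster's far end. All 4 are on the plus strand.
mmu-miR-127-3p: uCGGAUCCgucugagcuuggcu
mmu-miR-379-5p: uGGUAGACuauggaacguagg
mmu-miR-134-5p: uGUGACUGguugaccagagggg
mmu-miR-410-3p: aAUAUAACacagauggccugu

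Some mature sequences of the locus are near copies of each other, which matters for an array whose probes have to tell short sequences apart. Among the 113 mature names, 18 share their seed with another of the locus, in 9 groups. Only these seed-sharing pairs were compared over their length, so near copies with different seeds are not covered. The 4 pairs below are shown because they are the closest of the 9, with at most 2 differing positions counted from the 5′ end. These were 0 of 18 in the first pair, 1 of 22 in the second and 2 of 22 in the third and in the last. In the other 5 pairs, 5 to 13 positions differ. None of these sequences can be tied here to a row, so signal shared between near copies cannot be assessed.
mmu-miR-299b-3p: uAUGUGGGacgguaaacc
mmu-miR-299a-3p: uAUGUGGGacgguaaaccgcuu
mmu-miR-376c-5p: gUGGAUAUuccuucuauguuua
mmu-miR-376b-5p: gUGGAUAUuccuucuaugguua
mmu-miR-379-3p: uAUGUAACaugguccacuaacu
mmu-miR-411-3p: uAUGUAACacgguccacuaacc
mmu-miR-3070-3p: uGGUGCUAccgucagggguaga
mmu-miR-3070-2-3p: uGGUGCUAuggucagggguaga

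The Dlk1-Dio3 rows carried a value less often than the rest of the array in both lines. In Pam212, 16 of the 39 had an intensity (41.0%), against 62.2% of all 739 rows and 63.4% of the 700 other rows. In LY-1, 13 of the 39 had one (33.3%), against 59.1% of all rows and 60.6% of the others. The share was thus lower for these 39 on each array taken separately.

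The shortfall was largest for values on both arrays. Only 6 of the 39 rows (15.4%) had an intensity in both lines, against 47.9% of all rows and 49.7% of the others. A further 10 had one in Pam212 only, which is 25.6% against 14.3% of all rows, and 7 in LY-1 only, which is 17.9% against 11.2%. The remaining 16 (41.0%) had none on either array, against 26.5% of all rows. The plot of deposited values by array shows this pattern.

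**Figure D1:**
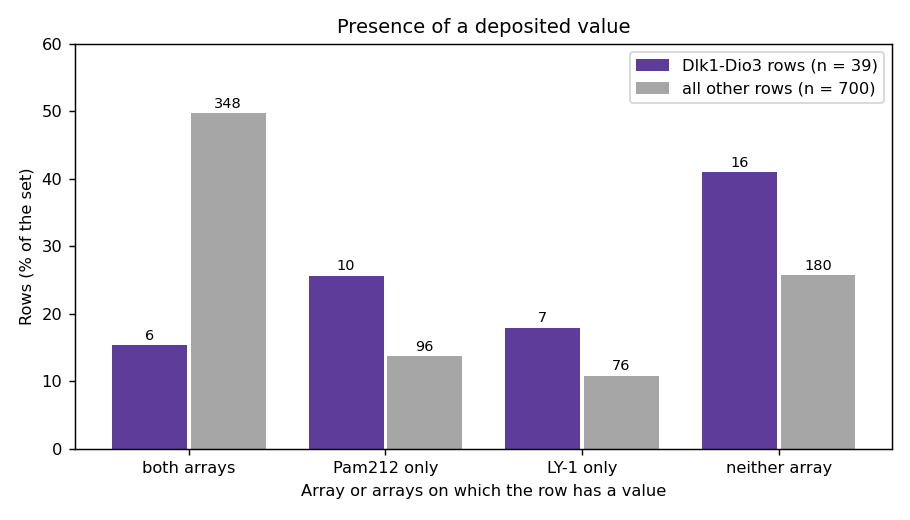
Share of rows with a deposited intensity on both arrays, in Pam212 only, in LY-1 only or on neither, for the 39 Dlk1-Dio3 rows and the 700 other rows, with the number of rows above each bar. The Dlk1-Dio3 bar is lower than the other for both arrays (15.4% against 49.7%) and higher in the other categories.

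Where a Dlk1-Dio3 row had a value, it was usually dim. The 16 Pam212 intensities ran from 0.965 to 43.6 with a median of 1.36, while the 444 values of other rows had a median of 2.21. The 13 LY-1 intensities ran from 0.959 to 35.5 with a median of 1.37, against 2.46 for the 424 other values. The lowest values on the arrays were 0.943 and 0.948, so most of the values of the 39 rows lay near the bottom of the scale. A row's brightness also depends on how its probe binds, so these intensities do not rank the miRNAs by abundance.

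The pooled median of every value in the table, 2.26 units, served as a floor for calling a row bright enough to compare. Of the 39 rows, 5 reached it on at least 1 array (12.8%), against 35.6% of all 739 rows. In Pam212 4 rows did so, and 12 of the 16 values lay below it. In LY-1 3 rows did so, and 10 of the 13 values lay below it. At the stricter level of 11.0 units, the 75th percentile of all values, 1 of the 39 rows remained on each array, or 2.56%, where 15.1% of the other rows reached it in Pam212 and 16.7% in LY-1. The curves of the share of rows reaching each intensity lie lower for the 39 rows on both arrays up to the brightest of them.

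**Figure D2:**
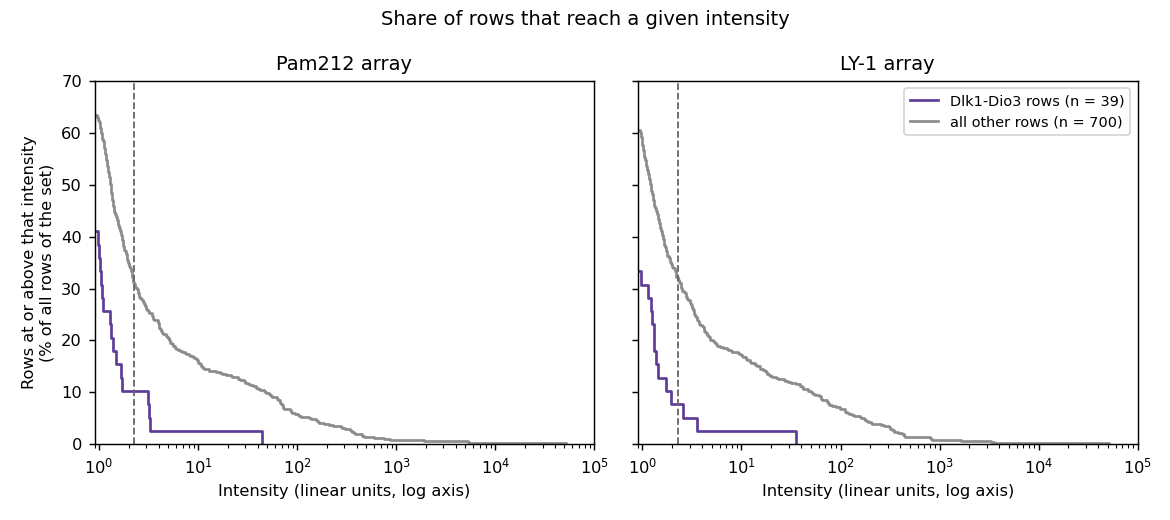
Share of rows with an intensity at or above the value on the x axis (linear units on a log axis), as a percentage of all rows of the set, empty cells included, for the Pam212 and LY-1 arrays. The dashed line is the floor of 2.26, which 10.3% of the 39 Dlk1-Dio3 rows and 31.0% of the 700 others reached in Pam212, and 7.69% and 32.1% in LY-1.

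A single row stood apart from the rest of the 39. MIMAT0003182 read 43.6 in Pam212 and 35.5 in LY-1, where it ranked 74 of 460 and 82 of 437 values. It was the only one of the 39 above 11.0 units on either array, and it alone made up 63.9% of their summed intensity in Pam212 and 64.2% in LY-1. The sums of the whole arrays were also dominated by 1 value each, 51458.5 of 91631 in Pam212 and 51140.3 of 86492.3 in LY-1. The log2 difference of MIMAT0003182, LY-1 minus Pam212, was -0.30, a 1.23-fold lower reading in LY-1. The next brightest value of the 39 rows was 3.27 in Pam212 and 3.55 in LY-1. Without MIMAT0003182 their 15 values in Pam212 summed to 24.6 units and their 12 values in LY-1 to 19.8. These sums cover partly different rows, so they do not compare the level of the set between the lines.

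MIMAT0003184, whose accession is close in number to that of the brightest row, read 3.17 in Pam212 and 3.55 in LY-1. Its log2 difference was 0.16, and it was the only row of the 6 measured in both lines with the higher value in LY-1. The accessions MIMAT0003183, MIMAT0003185 and MIMAT0003186, which lie beside these in number, had no value on either array. In miRBase such neighbouring numbers were given broadly in order of registration, which does not show that the miRNAs adjoin each other in the genome.

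MIMAT0003167 had an intensity of 3.27 in Pam212 and of 1.74 in LY-1, so it was 1.88-fold lower in LY-1, or -0.91 on the log2 scale. MIMAT0001095 had 3.11 in Pam212 and 1.43 in LY-1, which was 2.17-fold lower in LY-1, or -1.12 on the log2 scale. In both rows the Pam212 value passed the floor and the LY-1 value did not. MIMAT0001090 read 2.58 in LY-1 and had no value in Pam212, so no difference was computed for it.

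**Figure D3:**
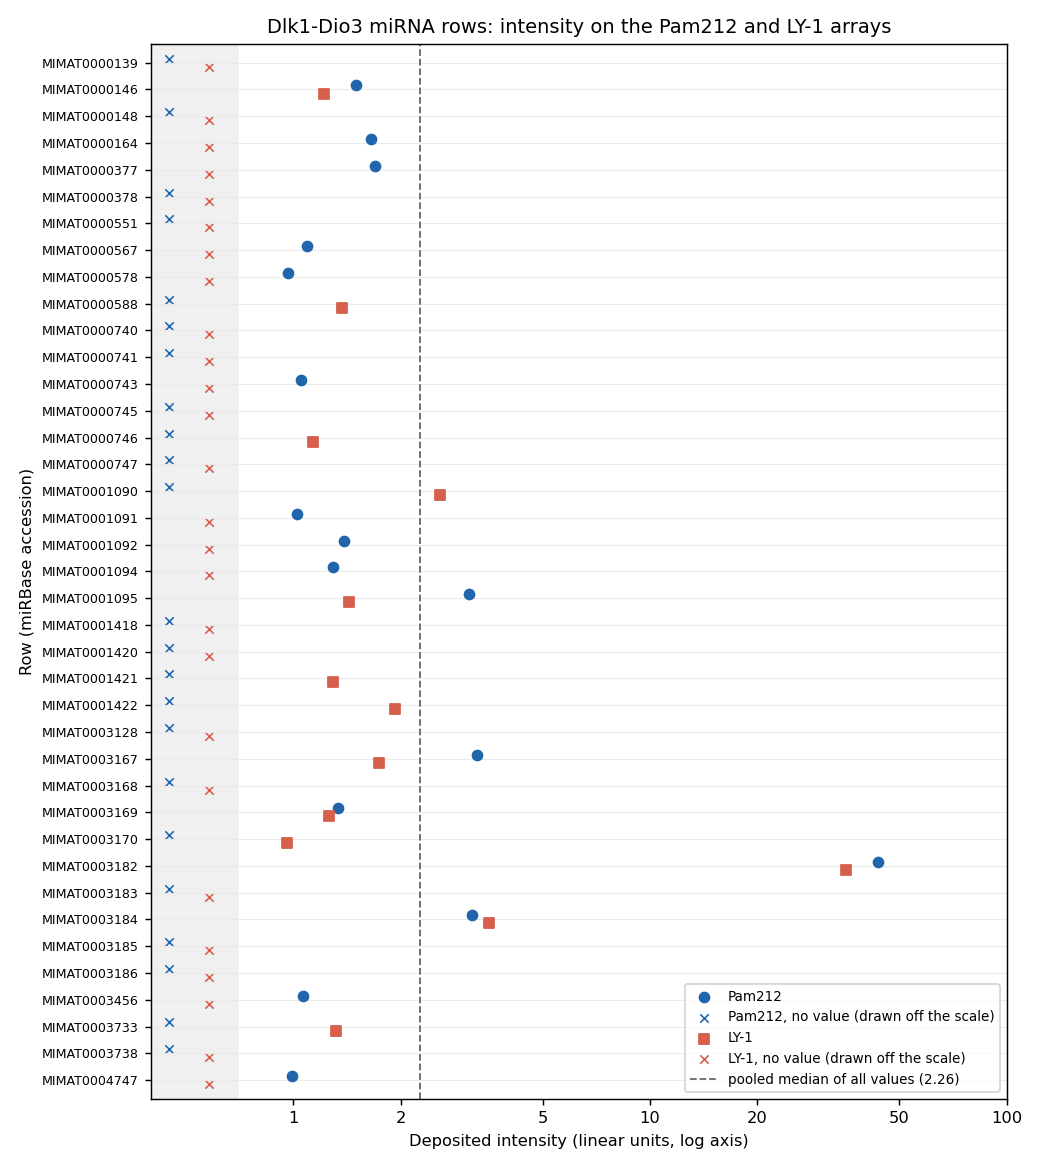
Deposited intensity (linear units on a log axis) of each of the 39 Dlk1-Dio3 rows on the Pam212 array (circles) and the LY-1 array (squares), with 1 array per line. Crosses in the grey strip mark rows with no value and have no position on the scale. Only MIMAT0003182, at 43.6 and 35.5, lies far to the right of the floor of 2.26 (dashed line).

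The other rows were all below the floor. MIMAT0000146 read 1.497 in Pam212 and 1.22 in LY-1, and MIMAT0003169 read 1.33 and 1.26, with log2 differences of -0.30 and -0.08. The 10 rows with a value in Pam212 only ran from 0.965 to 1.70. They were, from the dimmest, MIMAT0000578, MIMAT0004747, MIMAT0001091, MIMAT0000743, MIMAT0003456, MIMAT0000567, MIMAT0001094, MIMAT0001092, MIMAT0000164 and MIMAT0000377. Of the 7 rows with a value in LY-1 only, MIMAT0001090 was the brightest, and the other 6 ran from 0.959 to 1.92. From the dimmest, these were MIMAT0003170, MIMAT0000746, MIMAT0001421, MIMAT0003733, MIMAT0000588 and MIMAT0001422.

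The 16 rows empty on both arrays included MIMAT0000139 and MIMAT0000148, and MIMAT0000378, MIMAT0000551, MIMAT0000740, MIMAT0000741, MIMAT0000745 and MIMAT0000747. They also included MIMAT0001418 and MIMAT0001420, and, beside the 3 named above, MIMAT0003128, MIMAT0003168 and MIMAT0003738. An empty cell gives no level, and no fold was set against one.

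A value on 1 array only was the usual state of a measured Dlk1-Dio3 row. Of the 23 rows with any value, 17 had it on 1 array (73.9%), against 172 of 520 others (33.1%). Brightness moved with this: among rows whose brighter value lay below the floor the counts were 16 of 18 Dlk1-Dio3 rows (88.9%) and 162 of 262 others (61.8%). At or above the floor they were 1 of 5 and 10 of 258. Most of the measured Dlk1-Dio3 rows were therefore seen in a range where other rows, too, often had a value on a single array, and the part of brightness in the count was not tested.

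Between the lines, the 39 rows gave few differences that could be computed. Rows with a value on both arrays, the brighter of them at or above the floor, were compared at a threshold of 2-fold, and 4 of the 39 rows entered this comparison. None of the 4 was higher in LY-1, where 12.7% of the 252 such rows of the whole array were. MIMAT0001095 was the 1 lower row, where 6.35% of the 252 were lower. The median log2 difference of the 4 was -0.61, with a range from -1.12 to 0.16, and that of the 248 other rows was 0.03. This median depends on the floor, since MIMAT0001095 and MIMAT0003167 reached it only in Pam212, where they were brighter. With both values at or above the floor, 2 of the 39 rows remained, with a median of -0.066, against 0.01 for 184 other rows. No difference of the set between the lines is read from these medians. MIMAT0001095 was no longer past 2-fold when a pseudocount of 1.02 was added before taking logs, which gave -0.75, and dropped out when both values had to reach the floor.

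Of the 6 rows measured in both lines at any brightness, 5 had the lower value in LY-1, with a median log2 difference of -0.30. The -0.08 of MIMAT0003169 turned to 0.017 when a lowess trend was subtracted. The 348 other rows had 173 lower and 175 higher, with a median of 0.00. The 61 other rows measured on both arrays whose brighter value lay between 2.26 and 3.55 had differences from -1.59 to 1.76 and a median of -0.14, and 3 of them were at least 2-fold lower and 5 at least 2-fold higher. The upper bound of 3.55 was itself the brighter value of MIMAT0003184. The 3 Dlk1-Dio3 rows measured on both arrays in that interval were MIMAT0001095, MIMAT0003167 and MIMAT0003184. They lay within that wide range, as the plot of difference against level shows. This is a weak check, since MIMAT0001095, at -1.12, was past 2-fold lower, as only 3 of the 61 were (4.92%).

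**Figure D4:**
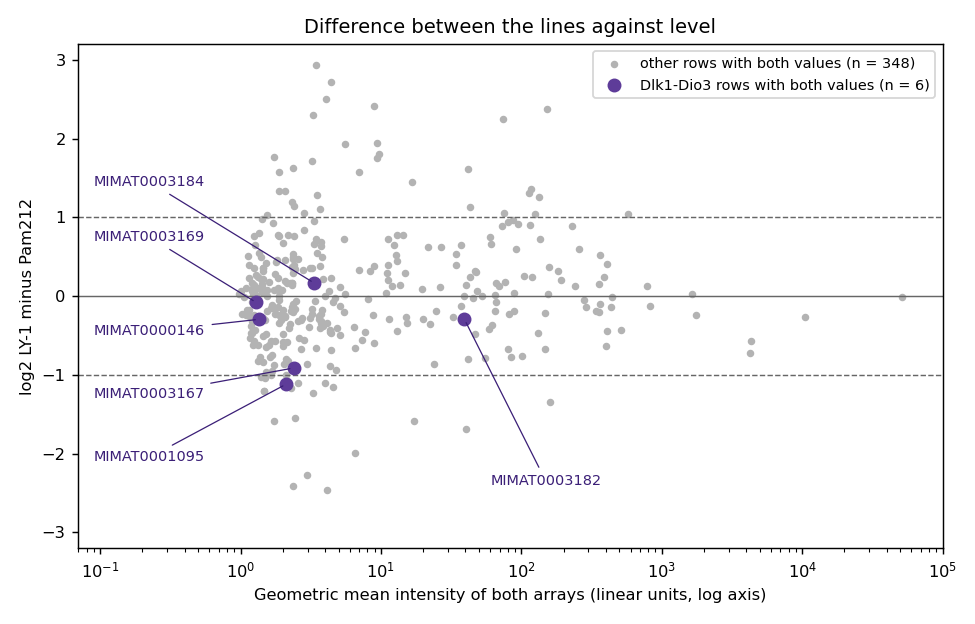
Log2 difference, LY-1 minus Pam212, against the geometric mean intensity of both arrays (linear units on a log axis) for the 354 rows with both values. The 6 Dlk1-Dio3 rows are labelled, from -1.12 for MIMAT0001095 to 0.16 for MIMAT0003184, and the dashed lines mark 2-fold.

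The 39 accessions fell into a few ranges of registration, and the shares were also set against other rows of the same ranges, a split made after the values had been seen. Of the 16 Dlk1-Dio3 accessions numbered below 1000, 6 had a value in Pam212 (37.5%) and 3 in LY-1 (18.8%). Among the 188 other rows of that range the shares were 75.5% and 74.5%. None of the 16 reached the floor on either array, whereas 107 of the 188 others did (56.9%). This early range therefore held the widest gap between Dlk1-Dio3 and other rows among the ranges with more than 1 of the 39 accessions. In Pam212 the Dlk1-Dio3 share was similar in the ranges below 1000, from 1000 and from 3000 (37.5%, 44.4% and 38.5%). That of the other rows was highest in the early range (75.5%, against 57.1% and 56.3%). In LY-1 the Dlk1-Dio3 share was itself lower there (18.8%, against 44.4% and 46.2%), and that of the others higher (74.5%, against 33.3% and 58.0%).

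In the later ranges the gap was smaller or ran the other way. From 1000 to 1999, 4 of 9 Dlk1-Dio3 rows had a value in Pam212 and 4 of 9 in LY-1, against 12 and 7 of 21 others. The share was thus lower than that of the others in Pam212 (44.4% against 57.1%) but higher in LY-1 (44.4% against 33.3%). The floor was reached by 2 of the 9 (22.2%) and 3 of the 21 (14.3%). Fewer of the Dlk1-Dio3 rows of this range were empty on both arrays (22.2% against 38.1%). From 3000 to 3999, 5 of 13 had a value in Pam212 and 6 in LY-1 (38.5% and 46.2%), against 56.3% and 58.0% of 119 others, and 3 of the 13 and 36 of the 119 reached the floor. The single row from 4000 to 4999, MIMAT0004747, read 0.990 in Pam212 and was empty in LY-1. Over all 4 ranges together, 63.1% of the 515 other rows had a value in Pam212 and 58.6% in LY-1, close to the 63.4% and 60.6% of all 700 other rows.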

How the data were processed

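The deposited table holds 1 intensity per row and array on a linear scale. Scanning, background correction, combining of spots and scaling by the authors are not given in the sources used here. Over the rows with both values the median was 3.21 for Pam212 and 3.31 for LY-1, so no further scaling was applied. The number of arrays, 1 per line, limits the precision of every value.

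Rows were selected by accession. The log2 difference is LY-1 minus Pam212 with no pseudocount, and a 2-fold size threshold stood in place of a test. The rule for rows described with both values took those whose brighter value reached the pooled median, those at least 2-fold apart and the 3 brightest of each array. The others were to be listed with their range, and values were also given for MIMAT0000146, MIMAT0003169 and MIMAT0004747, chosen after they were seen. The planned grouping by place, arm and seed, the other mature strands of the locus and the cell type markers needed names and were not analysed here. Members and lists were chosen with earlier results of these data known.

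Sequences and gene positions are from RefSeq (GRCm38.p6). Python 3.11.15, numpy 2.4.6, pandas 2.3.3, statsmodels 0.14.6 and matplotlib 3.10.9 were used. Scripts were tested on simulated data with planted 4-fold changes, no noise, no floor and values raised above the bottom of the scale. That test does not cover dim rows near the floor. Alternatives changed the scaling, floor, pseudocount, threshold and treatment of empty cells.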

Additional observations from a re-analysis of the deposited data

How the results depend on the processing

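The count of Dlk1-Dio3 rows at least 2-fold lower in LY-1, 1 as reported, was the same under every scaling tried (median difference set to 0, equal 75th percentiles, quantile normalization, lowess with a span of 0.5). The median log2 difference over all rows with both values was already -0.003, so setting it to 0 could hardly change the count. Equal 75th percentiles moved MIMAT0001095 only to -1.16. The count was 0 with the floor at the 75th percentile, with both values at the floor, with the pseudocount and at a 3-fold threshold, where 3.31%, 3.23%, 3.17% and 2.78% of all rows compared were lower. It was 2 at a 1.5-fold threshold, where MIMAT0003167 was added and 17.1% of all rows were lower. The count of higher rows stayed 0 except with empty cells set to the array's lowest value, which made it 1 through MIMAT0001090, with 14.8% of all rows higher. The median log2 difference, -0.61 as reported, was -0.30 with no floor, with the floor at the 75th percentile or with empty cells filled, -0.066 with both values at the floor, and -0.46 with the pseudocount. The stricter floors compare 1 or 2 rows, no floor compares 6 and filling compares 5, while the pseudocount and the thresholds keep the same 4. Rows with a value numbered 16 in Pam212 and 13 in LY-1. Counting only values at or above the pooled median left 4 and 3, and at or above the 75th percentile 1 and 1. Leaving out rows with several accessions could not change these values, since no Dlk1-Dio3 row held several. Of the 6 differences, that of MIMAT0003169, -0.08 as reported, changed sign, to 0.017 with the lowess trend subtracted. The others kept theirs: MIMAT0000146 ran from -0.34 to -0.17, MIMAT0001095 ran from -1.16 to -0.75, MIMAT0003167 from -0.95 to -0.64, MIMAT0003182 from -0.45 to -0.29 and MIMAT0003184 from 0.12 to 0.24. No paired analysis was possible because each line has 1 array, and no replicate could be left out. Signal over background is unknown, since the table holds no background values.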
